A study of Homo sapiens with 12 samples.

Results

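Transcript levels were compared between MDA-MB-231 cells given 0.1 mM 5-aminolevulinic acid (5-ALA) with no siRNA and MDA-MB-231 cells given no treatment. MDA-MB-231 is an established human line of triple-negative breast cancer, grown here in RPMI medium with fetal calf serum and glutamine. The comparison uses 6 of the 12 samples of the series, 3 untreated and 3 with 5-ALA only, chosen by the treatment in their labels. The other 6 samples also had 0.1 mM 5-ALA, combined with siRNA at 15 nM that targeted FECH in 3 samples and was a commercial control in the other 3. Those 6 enter the statistical model, where they share in the estimate of the spread and of the differences between runs, and their levels are shown for reference. Titles number the samples in 3 successive sets of 4 (1 to 4, 5 to 8 and 9 to 12), and every set holds each group once. These sets are called runs here, and each 5-ALA sample was paired with the untreated sample of its run. The labels give neither the length of exposure to 5-ALA nor the light conditions, and nothing in them tells separate cultures from repeat preparations of 1 culture. The p-values therefore measure the spread between these samples, which may be technical. The comparison asks what the precursor does to the transcriptome of cells given no siRNA.

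Heme synthesis starts in the mitochondrion, where ALAS1 joins glycine and succinyl-CoA into 5-ALA in the rate-limiting step of most tissues. Added 5-ALA enters the pathway after this step, is converted by a chain of enzymes into protoporphyrin IX, and becomes heme when ferrochelatase (FECH) inserts iron. Heme is known to lower ALAS1 transcript levels and to release the repressor BACH1 from DNA, which opens genes such as HMOX1, the inducible heme oxygenase that breaks heme down to biliverdin, carbon monoxide and iron. Protoporphyrin IX accumulates in many tumour cells given 5-ALA and is the photosensitizer of photodynamic therapy.

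One of the 6 arrays stands apart from its group. The untreated array of run 3 (sample number 9) differed by more than 0.5 on the log2 scale from its group's remaining pair of arrays, taken as their mean, for 416 of the 12151 genes tested (3.42%), 300 of them below and 116 above. The same count was 115 and 94 for the untreated arrays of runs 1 and 2, and it lay between 10 and 82 for the 9 arrays with 5-ALA. The counts of 115 and 94 are taken against means that include the untreated array of run 3. The count of 416 is taken against a mean that includes the untreated array of run 2, itself high for metallothioneins. None of these counts therefore isolates 1 untreated array. Of the 416 genes, 35 departed in the same direction on the 5-ALA array of run 3 as well. Of the 300 below, 269 were lower on the untreated array of run 3 than on any of the other 11 arrays (14.7% of all genes). Of the 116 above, 72 were higher there than on any other (9.37% of all genes). These genes were selected by their level on that array, so an extreme rank there is partly built in. The genes past the test, the gene lists that depended on this array and most other differences are therefore given with it and without it. In the fit without it the run 3 effect comes from the other groups, so a difference there need not equal that of the printed means. Median log2 signals ran from 7.25 to 7.34 over the 12 arrays. The deposited signals had been brought to a common distribution, so alike medians say nothing about the quality of an array. The labels state RNA integrity numbers above 9 for all samples. Precision is limited by having 3 arrays per group.

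After 5-ALA, HMOX1 and FBXO30 rose and ALAS1 fell, in the fit with all arrays and again in the fit without the untreated array of run 3. With limma and Benjamini-Hochberg adjustment over 12151 genes at 0.05, 2 genes were higher with 5-ALA (0.0165% of those tested) and 1 was lower (0.00823%). Without the untreated array of run 3 the counts were again 2 (0.0165%) and 1 (0.00823%), and they held the same genes. The same 3 genes were the only ones that differed by more than 0.5 in the same direction within each of the 3 runs. The test uses these same differences, so this adds no separate support. At an unadjusted p below 0.05, 475 genes were higher (3.91%) and 236 lower (1.94%), 711 in all, against 494 in all without the untreated array of run 3. A further 2409 probe sets with no gene symbol or several were tested apart on all arrays, with none past the test, 113 at an unadjusted p below 0.05 and a lowest adjusted p of 0.331 (limma).

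HMOX1 (chr22:35381096-35394207 in RefSeq's GRCh38.p14, probe set 8072678) showed the largest difference of all genes tested. Its log2 signal was 8.51, 8.77 and 8.76 in the untreated samples of runs 1, 2 and 3, and 10.40, 10.76 and 10.91 in the 5-ALA samples. Every 5-ALA sample was above every untreated sample by more than the range within either group. The means were 8.68 ± 0.15 and 10.69 ± 0.26 (SD, n = 3 each), a 4.03-fold rise (log2 difference 2.01, 95% interval 1.79 to 2.23, limma adjusted p = 3.8e-06). Within the runs the log2 differences were 1.89, 1.99 and 2.15. Without the untreated array of run 3 the rise was 3.92-fold (limma adjusted p = 1.1e-05); for HMOX1 this array lay between the other untreated arrays. The exact two-sided permutation test of the 3 values against 3, which does not use the pairing by run, gave p = 0.1. That is the smallest value this unpaired test can give. Any gene whose groups do not overlap reaches it, which held for 3.6% of all genes in the higher direction and 2.77% in the lower. In the samples with control siRNA and 5-ALA the level was 10.33, 10.12 and 10.55, also above every untreated sample. With FECH siRNA and 5-ALA it was 8.61, 8.69 and 8.69, within the range of the untreated samples.

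FBXO30 (chr6:145793502-145814795, minus strand, probe set 8130032) was the other transcript that rose. It encodes an F-box protein, the part of an SCF ubiquitin ligase that binds the substrate. Its log2 signal was 9.80, 10.01 and 9.75 in the untreated samples and 10.59, 10.60 and 10.67 with 5-ALA. The lowest 5-ALA sample lay above the highest untreated sample, and the untreated samples were spread more widely than the 5-ALA samples. The means of 9.85 ± 0.14 and 10.62 ± 0.04 (SD, n = 3 each) give a 1.70-fold rise (log2 difference 0.76, 95% interval 0.61 to 0.92, limma adjusted p = 0.00175). Within the runs the differences were 0.79, 0.58 and 0.92. Without the untreated array of run 3 the rise was 1.59-fold (limma adjusted p = 0.00134). The samples with control siRNA and 5-ALA stood at 10.33, 10.34 and 10.50 and those with FECH siRNA and 5-ALA at 9.91, 9.95 and 10.03, so the former lay above all untreated samples and the latter overlapped them. The call was lost when run 1 was left out (limma adjusted p = 0.35, log2 difference 0.75). It was also lost when only the 6 arrays of the 2 groups were fitted (limma adjusted p of 0.258 with the run as a block and 0.0572 without it).

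ALAS1 (chr3:52198083-52214327, plus strand, probe set 8080184), the enzyme whose product was added, was the 1 transcript that fell. Its log2 signal was 9.34, 9.29 and 9.75 in the untreated samples and 8.65, 8.61 and 8.86 with 5-ALA. The untreated sample of run 3 was the highest of the 6, and the groups did not overlap. The means were 9.46 ± 0.25 and 8.71 ± 0.13 (SD, n = 3 each), 1.69-fold lower (log2 difference -0.76, 95% interval -0.97 to -0.55, limma adjusted p = 0.0262). The difference was -0.70, -0.68 and -0.90 in runs 1, 2 and 3, and without the untreated array of run 3 the level was 1.55-fold lower (limma adjusted p = 0.0267). The adjusted p was 0.0541 without the run as a block, 0.0651 without the untreated array of run 2, and 0.217, 0.275 and 0.113 without the 5-ALA arrays of runs 1, 2 and 3 (limma). It was 0.35 and 0.892 with run 1 or run 2 left out, and with only the 6 arrays of the 2 groups 0.159 with the block and 1 without it (limma). The call of ALAS1 is lost under these 9 of 21 settings, while its log2 difference over all of them lay between -0.84 and -0.61. Control siRNA with 5-ALA gave 8.89, 8.61 and 8.73, below all untreated samples, and FECH siRNA with 5-ALA gave 9.90, 9.88 and 9.85, above all of them.

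**Figure D1:**
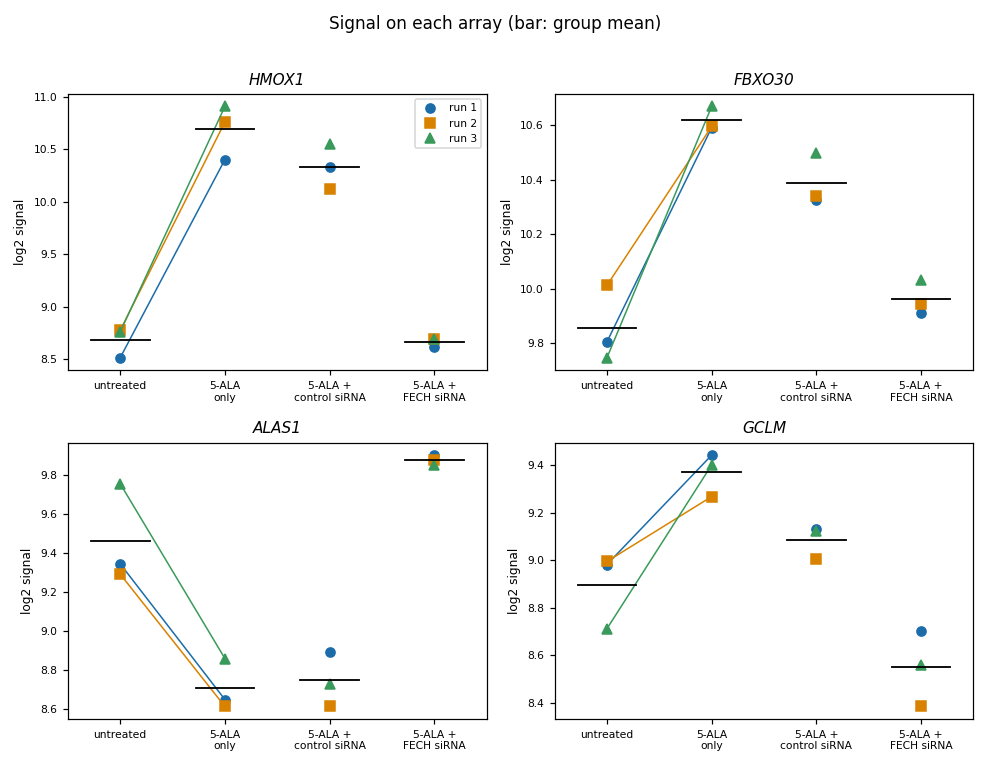
Log2 signal of HMOX1, FBXO30, ALAS1 and GCLM on each of the 12 arrays, by group, with runs 1, 2 and 3 as circles, squares and triangles, lines joining the untreated and 5-ALA samples of a run, and bars for group means. For HMOX1 all 3 lines climb from 8.51 to 8.77 up to 10.40 to 10.91, and for ALAS1 all 3 descend to 8.61 to 8.86; each panel has its own vertical scale, which does not start at 0.

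The rest of the heme pathway did not pass the test. Of 9 heme biosynthesis enzymes, 7 were tested, and ALAS1 alone among them fell. The median log2 difference of the 7 was 0.00, or -0.02 without the untreated array of run 3, against 0.01 over all genes tested in both cases. CPOX, which oxidizes coproporphyrinogen, had the lowest p of the others: its log2 signal was 10.24, 10.14 and 9.71 untreated and 10.41, 10.22 and 10.11 with 5-ALA. It was higher within each run, but the groups overlapped, and the difference of 0.22 had a limma adjusted p of 0.789. FECH itself stood at 8.51, 8.57 and 8.40 untreated and at 8.36, 8.60 and 8.53 with 5-ALA. Its difference of 0.01 had a 95% interval of -0.13 to 0.15 (limma adjusted p = 0.987), which leaves out changes as large as that of ALAS1. The differences of ALAD, which condenses 5-ALA into porphobilinogen, of UROS, which closes the porphyrin ring, and of UROD, which decarboxylates it, were -0.01, 0.00 and 0.03 (limma adjusted p of 0.985, 0.998 and 0.929). Without the untreated array of run 3 the differences were 0.14 for CPOX, -0.02 for FECH, -0.03 for ALAD, 0.00 for UROS and 0.06 for UROD, with a limma adjusted p of 1 for each. ALAS2, the erythroid synthase, and PPOX, which makes protoporphyrin IX, stayed below the filter level of 7.29 on all 12 arrays and were not tested.

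Of 11 genes of heme breakdown and its regulators, all tested, HMOX1 alone rose. At an unadjusted p below 0.05, 3 of the 11 were higher, HMOX1 included (3.91% of all genes), and 0 lower (1.94% of all genes). The median difference was 0.05, or 0.04 without the untreated array of run 3. On that array 5 of the 11 were the lowest of all 12 arrays, where 14.7% of all genes were lowest there. HMOX2, the constitutive heme oxygenase, differed by -0.07 with that array and -0.02 without it (limma adjusted p of 0.871 and 1). The repressor BACH1 read 9.64, 9.64 and 9.36 untreated and 9.69, 9.67 and 9.70 with 5-ALA, so that the untreated sample of run 3 was the lowest and the other 5 were alike. Its difference of 0.14 was 0.04 without that array (limma adjusted p of 0.789 and 1). NFE2L2, which encodes the activator NRF2, had a difference of 0.36 with the untreated array of run 3 and of 0.09 without it (limma adjusted p of 0.789 and 1). That array read 10.38, while the other untreated samples read 11.11 and 11.20 and the 5-ALA samples 11.26, 11.25 and 11.26.

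A list of 29 targets of NRF2 and BACH1 other than HMOX1 was examined next, since several are known to respond to release of BACH1; it was drawn up with earlier results of these data known. Among its 26 tested members FBXO30 alone rose and none fell. At an unadjusted p below 0.05, 5 of the 26 were higher (3.91% of all genes) and 0 lower (1.94% of all genes). The median difference was 0.04, and 0.00 without the untreated array of run 3, against 0.01 over all genes in both cases. Of the 26, 8 were higher in all 3 runs, where 15.4% of all genes were higher in all 3 runs and 11.5% lower in all 3. Both counts use the untreated array of run 3. On that array 8 of the 26 were the lowest of all 12 arrays, where 14.7% of all genes were lowest there. GCLM, the modifier subunit of glutamate-cysteine ligase in glutathione synthesis, came nearest to the threshold. Its log2 signal was 8.98, 9.00 and 8.71 untreated and 9.44, 9.27 and 9.40 with 5-ALA, with no overlap between the groups; over all genes, 3.6% had 5-ALA samples all above the untreated ones and 2.77% all below. The GCLM difference of 0.47 had a limma adjusted p of 0.28, and 0.633 without the untreated array of run 3 (difference 0.37). It passed only without the untreated array of run 2 (difference 0.58, limma adjusted p = 0.0301). Other members, chosen after their values were seen, were closer to 0: NQO1, a quinone reductase, differed by 0.12, TXNRD1, thioredoxin reductase, by 0.16, and the ferritin chains FTH1 and FTL by -0.02 and 0.02, with limma adjusted p of 0.789, 0.789, 0.952 and 0.953. Without the untreated array of run 3 these were 0.05, 0.09, -0.01 and -0.03. SLC7A11, the cystine transporter, had a difference of 0.44 that was 0.12 without the untreated array of run 3 (limma adjusted p of 0.789 and 1).

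FBXO30 and GCLM are on the list of NRF2 and BACH1 targets drawn up here, and ALAS1 moved the other way. The 250 bases upstream of their annotated starts are therefore shown. They are taken from RefSeq on GRCh38.p14, written 5′ to 3′ on the strand of the gene, with matches to TGACNNNGC, the core of the antioxidant response element, in capitals on whichever strand they lie. GCLM was added after its values were seen, and no HMOX1 sequence was available among the promoters used. The windows are chr6:145814796-145815045 for FBXO30, chr3:52197833-52198082 for ALAS1 and chr1:93909431-93909680 for GCLM.
FBXO30: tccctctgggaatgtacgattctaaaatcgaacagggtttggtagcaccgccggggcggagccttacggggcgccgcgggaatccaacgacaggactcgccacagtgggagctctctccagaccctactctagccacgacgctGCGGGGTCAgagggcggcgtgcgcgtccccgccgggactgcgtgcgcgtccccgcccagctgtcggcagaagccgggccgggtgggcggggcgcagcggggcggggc
ALAS1: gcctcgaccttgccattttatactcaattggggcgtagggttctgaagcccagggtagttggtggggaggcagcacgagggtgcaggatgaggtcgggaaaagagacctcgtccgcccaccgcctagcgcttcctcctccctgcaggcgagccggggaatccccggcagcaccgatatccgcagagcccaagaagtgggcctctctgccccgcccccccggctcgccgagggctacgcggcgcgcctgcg
GCLM: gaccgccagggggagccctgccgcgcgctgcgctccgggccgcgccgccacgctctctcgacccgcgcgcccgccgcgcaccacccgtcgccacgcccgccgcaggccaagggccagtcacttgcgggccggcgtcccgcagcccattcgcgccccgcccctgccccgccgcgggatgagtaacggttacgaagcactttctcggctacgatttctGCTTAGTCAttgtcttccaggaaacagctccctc
The FBXO30 window holds 1 match, GCGGGGTCA, read as the core on the opposite strand, whose first base lies 107 bases upstream of the start. The GCLM window holds 1 match in the same orientation, GCTTAGTCA, 34 bases upstream, and the ALAS1 window holds none. Of the 35116 human promoter windows of 250 bases, 3830 (10.9%) hold TGACNNNGC on either strand. A longer Maf recognition element, whose sequence always includes a TGACNNNGC match, was searched on both strands as well and is in 46 (0.131%) and in none of these 3. A match describes the letters and shows no binding.

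Genes of iron, of porphyrin transport and of 5-ALA uptake did not pass the test. Of 18 tested genes of iron uptake, storage and regulation none passed, and none had an unadjusted p below 0.05. The transferrin receptor TFRC read 11.86, 11.53 and 11.79 untreated and 11.71, 11.63 and 11.77 with 5-ALA, a difference of -0.03, or -0.01 without the untreated array of run 3 (limma adjusted p of 0.942 and 1). IREB2, which encodes an iron regulatory protein, and FBXL5, which directs its degradation, differed by 0.10 and 0.08 (limma adjusted p of 0.79 and 0.802), and by 0.05 and 0.11 without that array. The list of heme and porphyrin transport, with 17 tested genes, also held the mitochondrial glycine carrier SLC25A38. Differences in it ran from -0.11 for the mitochondrial transporter ABCB8 to 0.12 for SLC25A38 (limma adjusted p of 0.838 and 0.798). Without that array the differences of ABCB8 and SLC25A38 were -0.09 and 0.04. ABCG2, which exports protoporphyrin IX, read 7.66, 7.70 and 7.22 untreated and 7.65, 7.55 and 7.69 with 5-ALA. Its difference was 0.11 with the untreated array of run 3 and -0.07 without it, so its sign rests on that array (limma adjusted p of 0.889 and 1). Of 5 transporters that take up 5-ALA, 2 were above the filter. SLC36A1, a proton-coupled amino acid transporter, differed by 0.07 and SLC6A6, the taurine transporter, by -0.13 (limma adjusted p of 0.842 and 0.789), or by 0.05 and -0.04 without that array. In iron-sulfur cluster assembly, which shares mitochondrial iron with FECH, 0 of 18 tested genes passed. The ferredoxin FDX2 had the lowest p there, with 8.21, 8.17 and 8.14 untreated against 8.33, 8.32 and 8.25 with 5-ALA (difference 0.13, and 0.12 without the untreated array of run 3, limma adjusted p of 0.789 and 1).

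Each run gives its own value of the difference, since the runs share no samples. Whether the runs are separate cultures is not stated in the labels. The SD of the differences over all genes was 0.112 in run 1 and 0.105 in run 2 but 0.212 in run 3. Genes that differed by more than 0.5 numbered 15 in run 1 (7 higher, 8 lower), 17 in run 2 (3 higher, 14 lower) and 361 in run 3 (324 higher, 37 lower). Across genes, which are not independent replicates, the differences correlated at r = 0.077 between runs 1 and 2, -0.077 between runs 1 and 3 and 0.184 between runs 2 and 3. All 3 runs gave the same sign for 26.9% of genes. Of the 43 genes that differed by more than 1 in run 3, 42 were among those on which the untreated array departed from its group. Both measures use the signal of that array, so they are not independent.

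**Figure D2:**
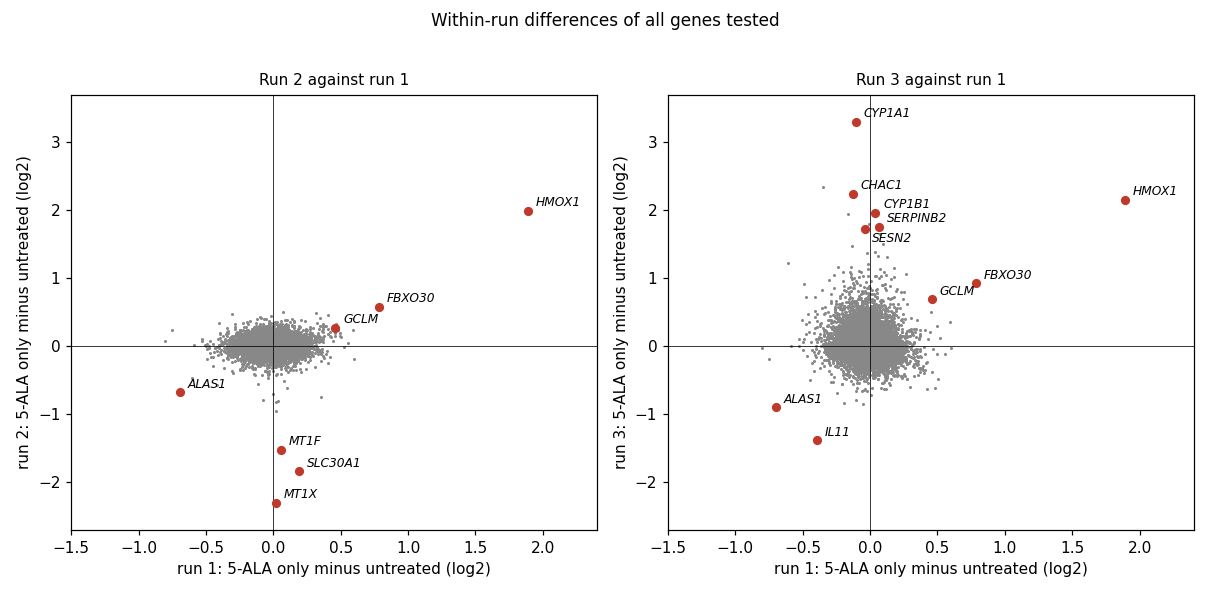
Difference between 5-ALA only and untreated (log2) for each of the 12151 genes tested, with run 1 on the horizontal axis and run 2 (left) or run 3 (right) on the vertical axis; each point is a gene and named genes are in red. HMOX1, FBXO30 and ALAS1 lie away from 0 on both axes in both panels, whereas MT1X, MT1F and SLC30A1 depart in run 2 only and CYP1A1, CHAC1 and other genes in run 3 only.

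Several gene lists departed from 0 in run 3. The integrated stress response, in which the transcription factor ATF4 turns on genes of amino acid supply, had 32 tested members with median differences of 0.03 in run 1, 0.07 in run 2 and 0.58 in run 3. None passed the test. Of the 32, 5 had an unadjusted p below 0.05, all higher (3.91% of all genes), and 13 were higher in all 3 runs (15.4% of all genes). The median was 0.18 with the untreated array of run 3 and 0.02 without it. On that array 16 of the 32 lay more than 0.5 below the other untreated arrays, and 18 were the lowest of all 12 arrays, where 14.7% of all genes were lowest there. CHAC1, which degrades glutathione, read 10.46, 10.43 and 8.31 untreated and 10.34, 10.62 and 10.55 with 5-ALA. Its difference of 0.77 (limma adjusted p = 0.789) was 0.02 without the untreated array of run 3. ASNS, asparagine synthetase, kept a smaller one: 9.68, 9.51 and 8.68 untreated against 9.88, 9.72 and 9.52 with 5-ALA gave 0.42, and 0.19 without that array (limma adjusted p of 0.789 and 1). SESN2, a stress-induced inhibitor of mTORC1 signalling, read 9.61, 9.76 and 7.99 untreated against 9.57, 9.81 and 9.72 with 5-ALA, a difference of 0.58 that was -0.02 without that array (limma adjusted p of 0.789 and 1).

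Targets of the aryl hydrocarbon receptor, a ligand-activated transcription factor, behaved likewise. Their 8 tested members had median differences of 0.04, 0.09 and 0.63 in runs 1, 2 and 3, none passed the test, and 5 were higher in all 3 runs (15.4% of all genes). The median of 0.25 became 0.04 without the untreated array of run 3. CYP1A1, the cytochrome P450 most used as a readout of this receptor, read 10.40, 10.12 and 6.79 untreated and 10.29, 10.22 and 10.08 with 5-ALA. The untreated sample of run 3 was below the filter level of 7.29, and the other 5 lay between 10.08 and 10.40. The difference was 1.10 (SE 0.56, limma adjusted p = 0.789) with that array and 0.02 (SE 0.08) without it. CYP1B1 had the same form, 12.77, 12.68 and 10.70 untreated against 12.80, 12.79 and 12.66 with 5-ALA, and its difference of 0.71 was 0.05 without that array. TIPARP, which encodes a repressor of the receptor, read 11.54, 11.32 and 10.39 untreated and 11.69, 11.62 and 11.39 with 5-ALA. Its difference of 0.48 was 0.21 without that array (limma adjusted p of 0.789 and 1).

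Hypoxia genes moved the other way on the same array. Of 22 tested, 15 were higher on the untreated array of run 3 than on any other of the 12, where 9.37% of all genes were, and 9 of 17 glycolysis genes were as well. The median differences of the hypoxia list were -0.05, -0.01 and -0.21 in runs 1, 2 and 3, and none passed the test. Of the 22, 4 had an unadjusted p below 0.05, all lower (1.94% of all genes), and 8 were lower in all 3 runs (11.5% of all genes). The list median of -0.07 was 0.00 without that array. KDM3A, a histone demethylase induced by hypoxia, read 8.80, 8.95 and 9.33 untreated and 8.71, 8.83 and 8.79 with 5-ALA. PFKFB4, which controls glycolytic flux, read 8.19, 8.42 and 8.76 untreated and 8.11, 8.30 and 8.27 with 5-ALA. Both differences, -0.25 and -0.23, were -0.10 without that array (limma adjusted p of 0.789 with it and 1 without it for both).

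**Figure D3:**
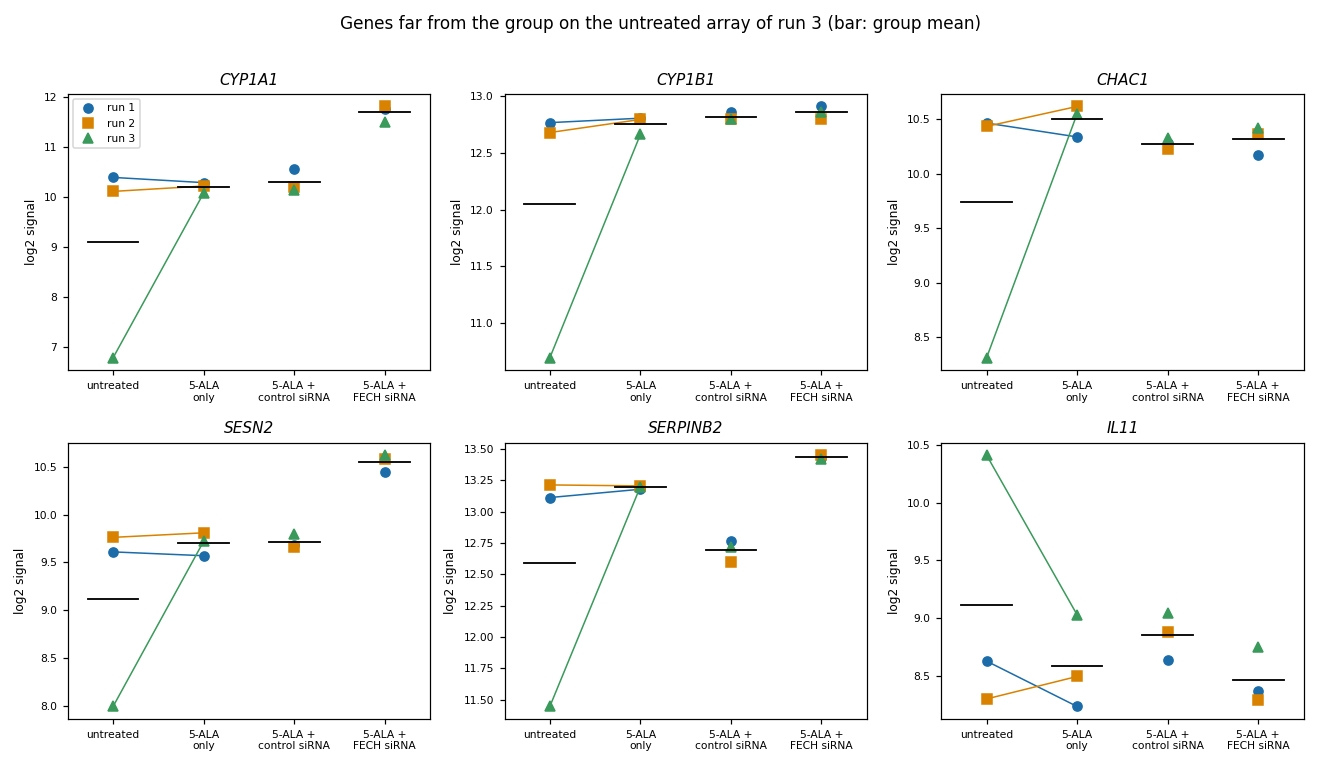
Log2 signal of 6 genes on each of the 12 arrays, by group, with runs 1, 2 and 3 as circles, squares and triangles, lines joining the untreated and 5-ALA samples of a run, and bars for group means. The untreated sample of run 3 is the lowest of the 12 for CYP1A1 (6.79), CYP1B1, CHAC1, SESN2 and SERPINB2 and the highest for IL11 (10.41), while the 5-ALA samples of the first 5 genes sit near the other untreated samples; each panel has its own vertical scale, which does not start at 0.

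Not every gene that was extreme on the untreated array of run 3 was so on that array alone. PTGS2, the inducible cyclooxygenase, read 10.95, 10.95 and 12.04 untreated and 10.99, 11.01 and 12.40 with 5-ALA, and it was as high in the other 2 groups in run 3. The ribosomal protein gene RPS14 read 12.22, 12.12 and 13.03 untreated and 12.23, 12.05 and 13.02 with 5-ALA. In all, 17 genes departed on all 4 arrays of run 3. The fitted difference was 0.15 for PTGS2 and -0.02 for RPS14, or 0.06 and -0.02 without the untreated array of run 3. The cytokine IL11, in contrast, read 8.63, 8.30 and 10.41 untreated and 8.23, 8.49 and 9.03 with 5-ALA. Its difference was -0.53 with the untreated array of run 3 and -0.03 without it (limma adjusted p of 0.789 and 1). CSF2, which encodes the growth factor GM-CSF, was lower with 5-ALA in every run, at 9.23, 9.42 and 10.11 untreated against 8.81, 8.85 and 9.75. Its groups overlapped, and the difference of -0.45, or -0.34 without that array, did not pass (limma adjusted p of 0.789 and 1).

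Run 2 had a departure of its own, in metallothioneins, the small metal-binding proteins induced by zinc and other metals, and in the zinc exporter SLC30A1. The median differences of the 9 tested members were 0.02 in run 1, -0.79 in run 2 and 0.04 in run 3, and none passed the test. MT1X read 10.38, 12.45 and 9.79 untreated and 10.40, 10.15 and 9.96 with 5-ALA, so the untreated sample of run 2 stood above all others; the next highest of the 12 arrays read 10.74. SLC30A1 read 9.26, 11.27 and 8.35 untreated and 9.45, 9.43 and 8.35 with 5-ALA. MT1F read 11.60, 13.17 and 11.76 untreated and 11.66, 11.65 and 11.68 with 5-ALA. Their differences of -0.70, -0.55 and -0.52 (limma adjusted p of 0.801, 0.811 and 0.789) rest on the untreated sample of run 2, and without the untreated array of run 3 they were -1.13, -0.81 and -0.71 (limma adjusted p of 1 for each). The list median of -0.21 became -0.35 without the untreated array of run 3 and 0.01 without that of run 2, an alternative added after the values were seen. MTF1, the zinc-sensing activator of these genes, differed by 0.14, or 0.09 without the untreated array of run 3 (limma adjusted p of 0.789 and 1).

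**Figure D4:**
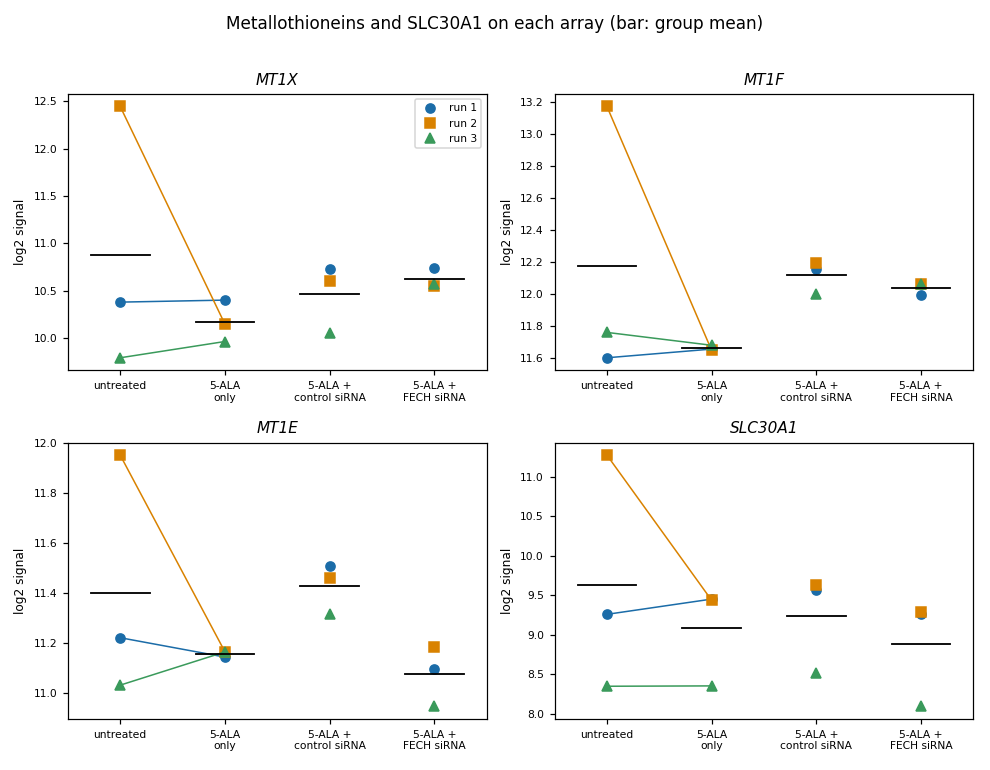
Log2 signal of MT1X, MT1F, MT1E and SLC30A1 on each of the 12 arrays, by group, with runs 1, 2 and 3 as circles, squares and triangles, lines joining the untreated and 5-ALA samples of a run, and bars for group means. The untreated sample of run 2 is the highest of the 12 in every panel (12.45 for MT1X and 11.27 for SLC30A1), and the untreated and 5-ALA samples of the other 2 runs lie close together; each panel has its own vertical scale, which does not start at 0.

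None of the members of the other lists passed the test in either direction. The 22 tested members of the endoplasmic reticulum's unfolded protein response had a median difference of 0.02 with and without the untreated array of run 3, and XBP1, one of its transcription factors, read 11.20, 11.18 and 10.82 untreated and 11.12, 11.28 and 11.41 with 5-ALA (difference 0.21, and 0.03 without the untreated array of run 3). Of 14 heat shock chaperones 2 had an unadjusted p below 0.05, both lower (1.94% of all genes). These were HSPA2 and HSPB1, with differences of -0.25 and -0.17 and, without the untreated array of run 3, of -0.21 and -0.13 (limma adjusted p of 0.789 with it and 1 without it for both). HSPB1, a small heat shock protein, read 12.25, 12.50 and 12.59 untreated and 12.11, 12.37 and 12.34 with 5-ALA, lower within each run while the groups overlapped. The 15 oxidative stress enzymes had a median of 0.01, or 0.00 without that array. Respiratory chain heme proteins and their assembly factors, 21 tested, had a median of 0.01 with and without it, and HCCS, which attaches heme to cytochrome c, differed by 0.14, or 0.07 without the untreated array of run 3 (limma adjusted p of 0.789 and 1). Of 18 heme-binding enzymes outside the respiratory chain, DGCR8, a heme-binding partner of the microRNA processing enzyme DROSHA, differed by 0.13 with and without the untreated array of run 3 (limma adjusted p of 0.789 and 1). The 7 tested transcripts of the mitochondrial genome had a median of -0.03, or -0.01 without that array.

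In the circadian clock, whose repressor NR1D2 binds heme, 14 genes were tested. At an unadjusted p below 0.05, 1 was higher (3.91% of all genes) and 3 were lower (1.94% of all genes). BMAL1, the higher one, is the activator that such repressors act on, and read 7.76, 7.82 and 7.72 untreated and 8.00, 8.04 and 8.19 with 5-ALA. The groups did not overlap, but the difference of 0.31, or 0.24 without the untreated array of run 3, did not pass (limma adjusted p of 0.789 and 1). The lower ones were BHLHE40, DBP and BHLHE41, which encode transcription factors of the clock, with differences of -0.38, -0.20 and -0.15, and of -0.11, -0.24 and -0.08 without that array (limma adjusted p of 0.789 with it and 1 without it for each). DBP read 8.73, 8.77 and 8.69 untreated and 8.41, 8.62 and 8.57 with 5-ALA, with no overlap. NR1D2 itself differed by 0.19 with that array and 0.04 without it. Among 19 immediate early genes SPRY2, an inhibitor of receptor tyrosine kinase signalling, read 10.31, 10.38 and 10.15 untreated and 10.55, 10.50 and 10.51 with 5-ALA (difference 0.24, or 0.16 without that array, limma adjusted p of 0.789 and 1). The medians of the lists of mitosis (26 tested), DNA replication (29), cholesterol synthesis and uptake (24), fatty acid synthesis (12), p53 targets (15), interferon response (24) and inflammatory cytokines (21) lay between -0.03 and 0.06, and without the untreated array of run 3 between -0.04 and 0.00. The inflammatory median went from 0.06 to -0.03 and the interferon median from 0.02 to -0.03, so their signs rest on that array. GADD45A, a p53 target that also responds to ATF4, read 10.19, 9.91 and 8.64 untreated and 10.17, 9.96 and 10.01 with 5-ALA. Its difference was 0.47 with the untreated array of run 3 and 0.00 without it.

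**Figure D5:**
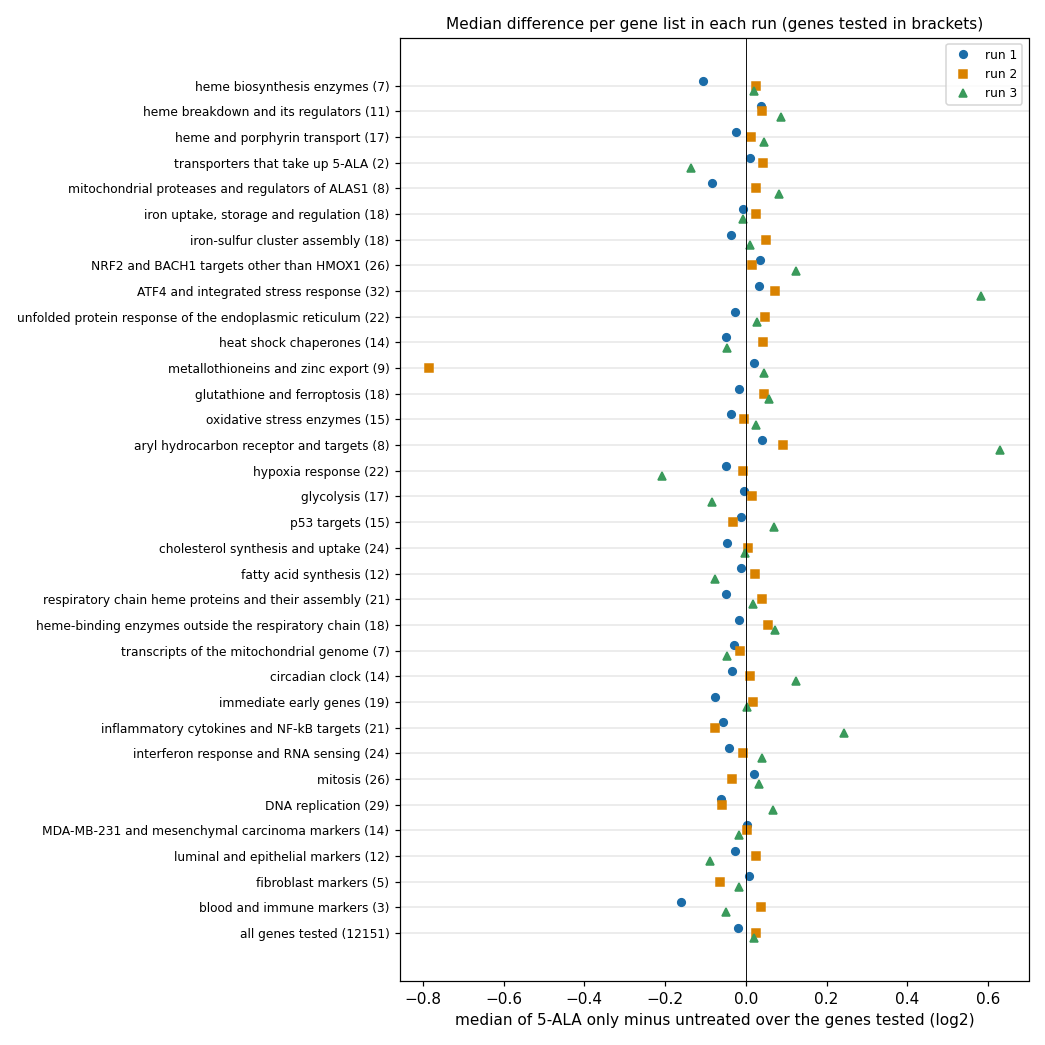
Median difference between 5-ALA only and untreated (log2) over the tested genes of each of 33 gene lists and of all genes, in run 1 (circles), run 2 (squares) and run 3 (triangles), with the number of genes tested in brackets. Most points lie near 0; the metallothionein list departs in run 2 (-0.79), and the ATF4 and aryl hydrocarbon receptor lists depart in run 3 (0.58 and 0.63).

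Below the 3 genes that passed, the genes with the lowest p that kept 1 sign in all runs differed by small amounts. After GCLM and BMAL1, the higher ones were DRG1, TATDN1, ARL14EP, PCF11, TMEM79 and PRIMPOL, with differences from 0.22 (TMEM79) to 0.35 (TATDN1), and from 0.19 (ARL14EP) to 0.27 (DRG1) without the untreated array of run 3. DRG1, a GTPase that binds translating ribosomes, read 9.67, 9.82 and 9.79 untreated and 10.04, 10.03 and 9.89 with 5-ALA. PCF11, a factor of mRNA 3′ end cleavage, read 9.01, 8.79 and 8.98 untreated and 9.16, 9.16 and 9.28 with 5-ALA. The lower ones after ALAS1 were BEND3, OTX1, LRRC61, AQP7, WDR38, BCL7A, AMER1, SHH and EBPL, with differences from -0.31 (AQP7) to -0.20 (AMER1), and from -0.25 (AQP7) to -0.17 (SHH) without it. BEND3, a chromatin-bound repressor of transcription, read 8.34, 8.46 and 8.60 untreated and 8.15, 8.22 and 8.19 with 5-ALA, with no overlap. OTX1, a homeobox factor, read 7.76, 7.82 and 7.92 untreated and 7.42, 7.70 and 7.63 with 5-ALA. All 15 had a limma adjusted p of 0.789, and of 1 without the untreated array of run 3, so none can be told from the spread between samples.

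The labelled cell type was checked against its markers. All 14 markers of MDA-MB-231 and mesenchymal carcinoma were above the filter, with VIM at 12.18 to 12.39 and CD44 at 13.29 to 13.40 over the 6 samples. Of 15 luminal and epithelial markers 12 passed the filter as well, so passing it does not tell these sets of markers apart. ESR1 and PGR, the estrogen and progesterone receptor genes, were among the 3 that did not, at 6.27 to 6.38 and 5.64 to 5.72. Luminal keratins were present (KRT8 at 11.89 to 12.21). The summed signal of the 14 markers was 61555 to 65108 untreated and 61994 to 64781 with 5-ALA, and that of 12 tested luminal and epithelial markers was 16675 to 17361 and 16006 to 16955. Of 9 fibroblast markers 4 were near background, with a summed signal of the other 5 of 1712 to 1942 untreated and 1718 to 1885 with 5-ALA. Of 12 blood and immune markers with a probe set 9 were near background. The other 3 were CD14, CD8A and PECAM1, and their summed signal was 1904 to 2017 untreated and 1683 to 1962 with 5-ALA. None of the members of these 4 lists passed the test.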

How the data were processed

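Biotin-labelled material from total RNA was measured on 12 arrays of 28869 probe sets. Per the submitters' processing notes the authors used RMA and the oligo package, versions and genome build not given in the sources used here; RMA corrects background, brings arrays to a common distribution and summarises probes, so group-wide shifts are levelled. The deposited signals are intensity on a linear scale (21.0 to 23641). The log2 of these deposited values was taken here with a pseudocount of 0. The 2 deposited tables of these arrays differ by at most 5e-05, and 12 further columns of per-sample values, whose names give only a group, were not used.

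Probe sets with 1 gene symbol (19937; 6741 had none, 2191 several) were kept when they exceeded the all-probe-set median (7.29) on at least 3 arrays, with the probe set of highest mean per symbol, which left 12151 genes. Symbols were updated by Entrez number to RefSeq names for 19309 probe sets, and 628 kept the name in the file. No detection calls were in these tables, so a level below 7.29 is not shown to be above background.

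Limma 3.58.1 in R 4.3.3 (lmFit, eBayes) fitted 4 group means and the run as a block over the 12 arrays, two-sided, with Benjamini-Hochberg adjustment at 0.05. The second fit left out untreated replicate 3; its run effect then comes from the other groups. The samples were paired by number. After removal of group means, all 18 same-run pairs correlated at 0.207 to 0.539 and other pairs at -0.436 to 0.154. Within a group these deviations cancel for each gene, so positive same-run correlations by themselves bring lower ones between other pairs. The code was tested on simulated data. The tables and figures used Python 3.11.15, numpy 2.4.6, pandas 2.3.3 and scipy 1.17.1.

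The comparison and the 33 gene lists (583 genes) were chosen with earlier results of these data known. Named genes are those past the test, the heme synthesis enzymes with TFRC, ABCG2, BACH1 and HMOX2, the 10 with lowest p in each direction among genes of 1 sign in all runs, up to 4 per list, and the 10 furthest above and below on untreated replicate 3; others are named after their values were seen. Alternatives changed the block, the arrays and runs included, array weights, the filter, the variance model, the normalization, the table and the pseudocount.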

Additional observations from a re-analysis of the deposited data

How the results depend on the processing

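The counts of genes past the test and the genes HMOX1, FBXO30 and ALAS1 were recomputed under 21 alternatives. HMOX1 passed the test in all 21, with log2 differences of 1.94 to 2.12 and limma adjusted p of at most 0.00241. FBXO30 passed in 18, with 0.66 to 0.86; the exceptions were only the 6 arrays compared, with or without the replicate block (limma adjusted p of 0.258 and 0.0572), and run 1 left out (0.35). ALAS1 passed in 12, with -0.84 to -0.61. The number of genes higher was 2 in the reported fit, 1 with only the 6 arrays (with and without the replicate block) and with run 1 left out, and 4 with array weights, which added C3orf62 and NUDT9P1. The number lower was 1 in the reported fit and 0 with no replicate block, with only the 6 arrays (with and without the block) and with run 1 or run 2 left out. Leaving out 1 array at a time gave 2 to 3 higher and 0 to 1 lower; the third was GCLM without untreated replicate 2. At an unadjusted p below 0.05 there were 711 genes in the reported fit, 343 without the block, 494 without untreated replicate 3 and 1813 with array weights. No fold change of a gene past the test reversed. A further 27 genes, the other heme genes and those of lowest p, were recomputed under each alternative whose filter they passed; 26 never passed the test and 22 kept their direction throughout. List medians were recomputed without untreated replicate 3, without untreated replicate 2 and without the filter. Without untreated replicate 3 the ATF4 median went from 0.18 to 0.02 and the aryl hydrocarbon receptor median from 0.25 to 0.04, and without untreated replicate 2 the metallothionein median went from -0.21 to 0.01. The causes of the lost calls were not tested. No detection values show which low signals are above background.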
